A study of Mus musculus with 8 samples.

Results

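The 4 TEAD transcription factor genes (Tead1, Tead2, Tead3 and Tead4), the TEAD antagonist gene Vgll4 and 5 genes of the upstream Hippo cascade (Nf2, Sav1, Stk3, Stk4 and Lats1) were examined in white adipocytes of mice with an adipocyte deletion of Yap1 and Wwtr1. They were chosen by name, because they encode the DNA-binding partners and the upstream regulators of YAP and TAZ, and they are 10 of the 30387 genes in the table. RNA-seq was carried out on isolated epididymal white adipocytes of 4 groups of mice, with 2 libraries in each group. Ad-Yap/Taz-KO mice (KO) and their wild-type littermates (WT) received a standard diet (SD, named normal chow in the sample labels) or a high-fat diet (HFD) for 4 weeks from the age of 5 weeks. That age is the one in the series record, and the general methods of the study give a slightly later start of the diet. KO mice carry floxed alleles of Yap1 and Wwtr1 and an Adipoq-Cre transgene, so that the deletion is constitutive and limited to cells that use the adiponectin promoter. Non-adipocytes in a preparation therefore keep both genes.

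In the Hippo pathway the kinases MST2 and MST1 (encoded by Stk3 and Stk4), with their scaffold SAV1, activate the kinases LATS1 and LATS2 and the MOB1 adaptors, and the membrane-linked protein merlin (encoded by Nf2) promotes this step. LATS kinases phosphorylate YAP and its paralogue TAZ (encoded by Wwtr1), which are then held in the cytoplasm and degraded. YAP and TAZ that reach the nucleus cannot bind DNA themselves and act through TEAD factors, for which VGLL4 competes. The comparisons asked whether the RNA levels of these partners and regulators differed when YAP and TAZ were removed from adipocytes, and whether the diet altered such a difference.

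Values were normalized counts, that is, reads per gene divided by a size factor for each library. Libraries held 14.0M to 22.3M reads on genes, a depth read from the spacing of low values. RNA of both targeted genes was still counted in KO libraries: Wwtr1 had 2060 and 2707 normalized counts in KO HFD (7121 and 6807 in WT HFD) and 2441 and 1957 in KO SD (5594 and 4743 in WT SD), and Yap1 had 1549 and 2068 in KO HFD (2468 and 2333 in WT HFD) and 1669 and 1699 in KO SD (2776 and 2717 in WT SD). Counts over a whole gene do not separate the floxed part from the rest, so they do not measure how complete the deletion was. Wwtr1 was lower in KO than in WT on HFD (log2 fold change -1.56 ± 0.18 SE, limma adjusted p = 3.1e-05) and on SD (-1.24 ± 0.18, adjusted p = 0.00097), and Yap1 was called lower on SD only (-0.71 ± 0.16, adjusted p = 0.024; on HFD -0.42 ± 0.16, adjusted p = 0.059). The Yap1 call on SD was kept in 0 of 4 fits that each left out a library (-0.72 to -0.69) and in 8 of 11 other settings. All 10 adipocyte markers were present in every library. Their summed level was 311954 to 322283 normalized counts in WT SD, 268375 to 352293 in KO SD, 403903 to 412447 in WT HFD and 108627 to 202944 in KO HFD. The sum of 12 macrophage markers moved the other way on HFD, from 2444 to 2495 in WT to 33086 to 36022 in KO, and on SD from 5262 to 5350 in WT to 18043 to 32250 in KO. Markers of fibroblasts and progenitors (8 genes) summed to 25446 to 25683 in WT HFD and 73937 to 79995 in KO HFD, and to 30214 to 36202 in WT SD and 35107 to 53518 in KO SD. Those of endothelium (7 genes) summed to 15120 to 15762 in WT HFD and 20301 to 31295 in KO HFD, but on SD to 24834 to 30331 in WT and 12907 to 23694 in KO, the opposite direction, where none of the 7 was called. Mural markers (5 genes) went different ways on HFD, with Myh11 and Tagln called higher and Acta2 and Cspg4 called lower in KO, and on SD none of the 5 was called and their sum was 12049 to 13185 in WT and 6944 to 9610 in KO. Of 6 mesothelial markers, 2 had log2 fold changes above 0 in KO against WT on HFD (median -1.14), and Wt1, with 46 and 54 normalized counts in WT HFD and 310 and 531 in KO HFD, was the one called higher, while Msln was called lower. Lymphocyte markers (8 genes, up to 3 of them at 0) summed to 41 to 45 in WT HFD and 144 to 292 in KO HFD. With the diet in WT, 11 of 12 macrophage, 4 of 7 endothelial and 4 of 8 fibroblast and progenitor markers were called lower. Another 1 of the 8 fibroblast and progenitor markers was called higher. Of 10 adipocyte markers 2 were called higher and 1 lower, and of 5 mural markers 2 higher and 2 lower. Lymphocyte markers were called lower in 2 of 5 tested and mesothelial markers in 1 of 6. Of all tested genes 18.0% were called in this comparison. In bulk RNA, fewer adipocytes and less RNA per adipocyte cannot be told apart, and the part of these cell mixtures in the results below was not tested.

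Each of the 10 genes had reads in every library, and positions given with the genes are those of GENCODE vM21 on GRCm38. Per kb of exon, Sav1 had the highest mean level (394 normalized counts per kb), followed by Lats1 (242), Tead1 (222), Nf2 (198), Vgll4 (131), Stk4 (114) and Stk3 (99.5), and then by Tead4 (46.1), Tead3 (32.4) and Tead2 (14.3). Sav1 lay above Lats1 in 8 of 8 libraries, and Stk3 above Tead4 and Tead3 above Tead2 in 8 of 8 with ranges that did not overlap. Lats1 and Tead1, Tead1 and Nf2, Nf2 and Vgll4, Vgll4 and Stk4, Stk4 and Stk3, and Tead4 and Tead3 had overlapping ranges, and their order turned in at least 1 library. Vgll4 lay above Stk4 in only 3 of 8 libraries, although its mean was higher. Tead1 was the leading TEAD gene in every library, with 59.6 to 81.3% of the summed TEAD level per kb. Its share was 61.6 and 66.0% in WT SD, 68.1 and 76.7% in KO SD, 78.5 and 81.3% in WT HFD and 66.5 and 59.6% in KO HFD, so that WT HFD stood above the 6 other libraries.

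**Figure D1:**
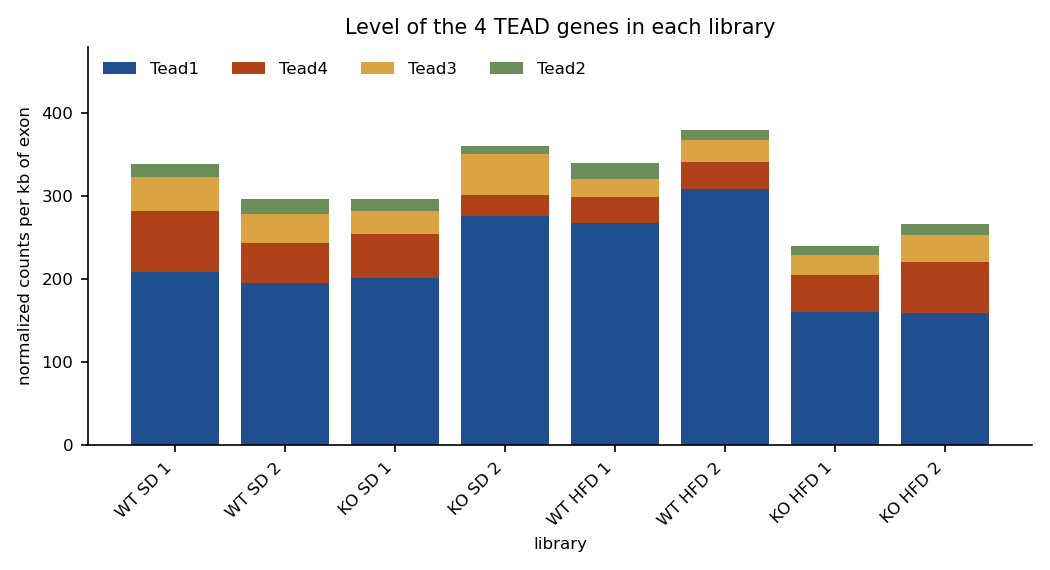
Stacked bars give the level of the 4 TEAD genes in normalized counts per kb of exon (vertical axis) in each of the 8 libraries (horizontal axis). Tead1 makes up 59.6 to 81.3% of each bar, and the 2 KO HFD bars are the lowest, with summed levels of 241 and 267 normalized counts per kb.

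TEAD factors recognise a short element whose letters are GGAATG on one strand and CATTCC on the other. The 300-base RefSeq promoter windows (GRCm38.p6, 250 bases before to 50 bases after a transcription start) were searched for these letters on both strands. Windows were given for 7 of the 10 genes, all except Tead1, Tead4 and Stk3. The letters occurred in the windows of 3 of these 7 genes, Vgll4, Sav1 and Tead3, against 16.6% of the 27025 genes with a window. Windows of Tead2, Nf2, Stk4 and Lats1 did not hold them. The upstream parts of the 3 windows with a match are shown with the matching letters in capitals, each 5′ to 3′ on the strand of its gene: Vgll4 at chr6:114969204-114969453 on the minus strand, Sav1 at chr12:69987003-69987252 on the minus strand and Tead3 at chr17:28350818-28351055 on the minus strand.
Vgll4: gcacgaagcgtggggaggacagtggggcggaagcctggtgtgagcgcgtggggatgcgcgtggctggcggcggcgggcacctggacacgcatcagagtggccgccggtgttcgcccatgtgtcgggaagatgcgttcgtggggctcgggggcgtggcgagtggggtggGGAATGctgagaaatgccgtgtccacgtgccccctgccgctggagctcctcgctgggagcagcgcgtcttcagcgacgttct
Sav1: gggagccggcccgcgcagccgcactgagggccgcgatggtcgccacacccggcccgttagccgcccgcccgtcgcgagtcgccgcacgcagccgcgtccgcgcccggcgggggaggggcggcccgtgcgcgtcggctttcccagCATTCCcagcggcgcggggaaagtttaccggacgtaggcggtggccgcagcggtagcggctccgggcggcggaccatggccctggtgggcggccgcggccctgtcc
Tead3: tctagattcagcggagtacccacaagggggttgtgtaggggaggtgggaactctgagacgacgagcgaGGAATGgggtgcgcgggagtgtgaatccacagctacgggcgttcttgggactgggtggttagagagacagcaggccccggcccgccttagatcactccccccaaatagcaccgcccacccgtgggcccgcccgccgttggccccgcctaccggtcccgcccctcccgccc
The matches began 82 bases before the start in Vgll4, 106 in Sav1 and 182 in Tead3. A second Tead3 window, from another annotated start, held 3 further matches. A match of letters is a description of the sequence, not a binding site or a cause of any difference.

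On HFD, 3 of the 10 genes fell in KO against WT adipocytes, Tead1, Vgll4 and Lats1, and none rose. A gene was called at a limma adjusted p of at most 0.05 over 18800 tested genes with a log2 fold change of 0.59 or more, up or down. Of all tested genes 32.2% were called in this comparison and 15.1% were called lower, so that the share of members called is near that of all genes in either direction. By adjusted p alone, 5 of the 10 passed, against 34.7% of all tested genes, the others being Nf2 and Sav1. The libraries of both groups did not overlap for 7 of the 10 genes (6 of them lower), against 69.6% of all tested genes (33.0% lower). The median log2 fold change of the 10 genes was -0.42, while that of all tested genes was 0.09 and that of tested genes averaging 50 or more normalized counts was -0.14. On SD, where the macrophage sum was higher and the endothelial and mural sums lower in KO, Vgll4 alone fell (1 of 10, background 4.71% called), and the median of the 10 genes was 0.09 (all tested genes -0.01).

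**Figure D2:**
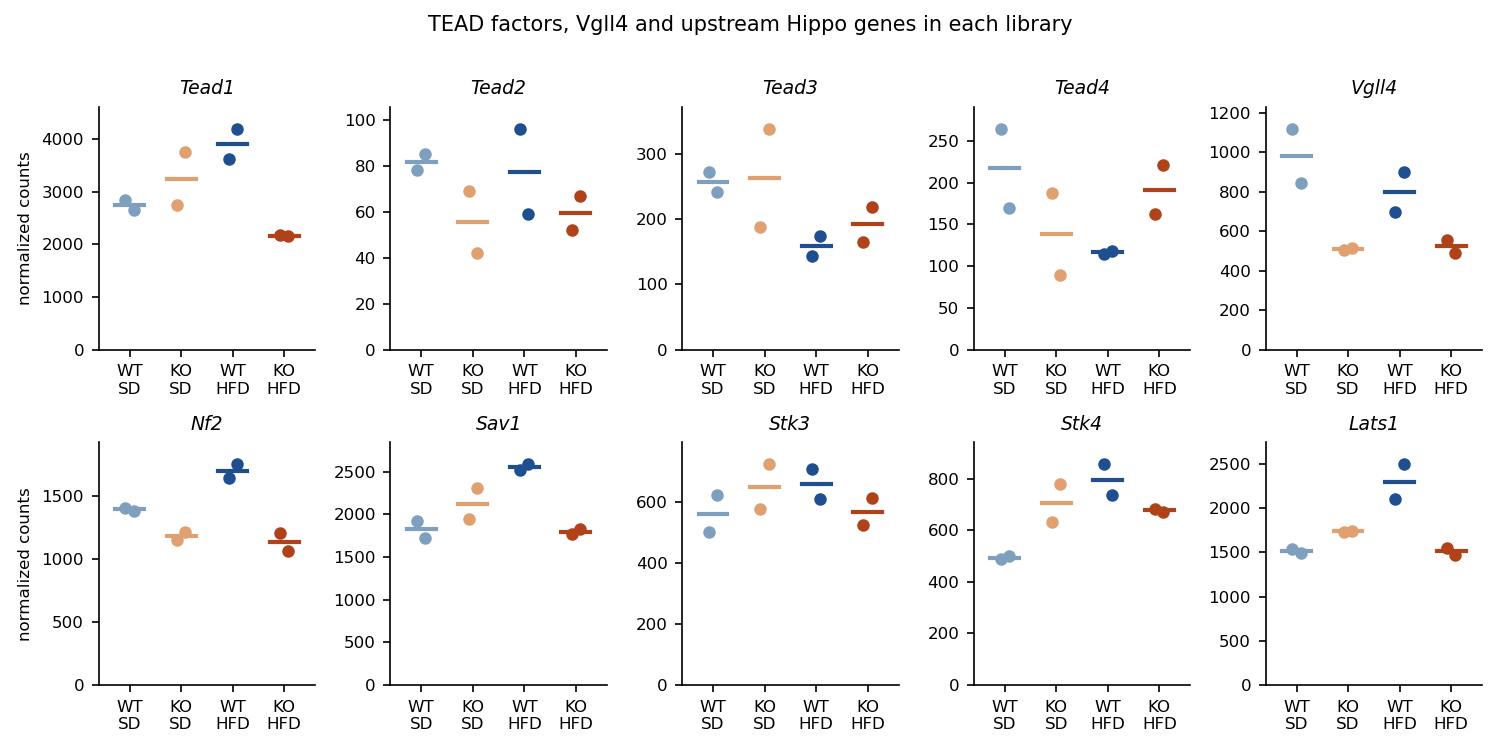
Each panel plots the normalized counts of 1 gene (vertical axis, from 0) in the 4 groups (horizontal axis), with a point for each library and a line at the mean of the 2 libraries. In Nf2, Sav1 and Lats1 both WT HFD points lie above all 6 others, and in Vgll4 all 4 KO points lie below all 4 WT points.

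Tead1 (chr7:112679318-112906807, plus strand), whose product is a ubiquitous TEAD family member, had 2838 and 2657 normalized counts in WT SD, 2741 and 3748 in KO SD, 3627 and 4190 in WT HFD and 2172 and 2159 in KO HFD. Both KO HFD libraries were the lowest of the 8, and WT HFD did not overlap with either WT SD or KO HFD. On HFD Tead1 was 1.80-fold lower in KO than in WT (log2 fold change -0.85 ± 0.17 SE, limma adjusted p = 0.0021). On SD the groups overlapped (0.22 ± 0.17, adjusted p = 0.56), the second KO SD library being high. The HFD difference minus the SD difference was -1.07 ± 0.24 (adjusted p = 0.013). HFD against SD gave 0.51 ± 0.17 in WT (adjusted p = 0.052) and -0.57 ± 0.17 in KO (adjusted p = 0.13), and neither passed.

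The 3 other TEAD genes were much lower in level and did not pass the test in any comparison. Tead4 (chr6:128224288-128300823, minus strand), whose product is needed for the trophectoderm of the early embryo, had 264 and 170 normalized counts in WT SD, 188 and 90 in KO SD, 115 and 118 in WT HFD and 162 and 221 in KO HFD. On HFD both KO libraries were above both WT libraries, opposite to Tead1 (0.70 ± 0.36, adjusted p = 0.16), whereas on SD the groups overlapped (-0.70 ± 0.36, adjusted p = 0.36). HFD against SD in WT was -0.86 ± 0.36 for Tead4 (adjusted p = 0.11), with no overlap between the groups.

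Tead3 (chr17:28331671-28350805, minus strand), a family member known from placenta, had 273 and 241 normalized counts in WT SD, 188 and 338 in KO SD, 143 and 175 in WT HFD and 165 and 219 in KO HFD. The 2 WT HFD libraries were below both WT SD libraries (-0.69 ± 0.30, adjusted p = 0.12), and KO and WT overlapped on both diets (0.26 ± 0.30 on HFD, -0.02 ± 0.30 on SD). Tead2 (chr7:45215753-45233644, plus strand), which is best known from embryonic tissue, had 78 and 85 normalized counts in WT SD, 69 and 42 in KO SD, 96 and 59 in WT HFD and 52 and 67 in KO HFD. Both KO SD libraries were below both WT SD libraries, but the SE was wide (-0.59 ± 0.42, adjusted p = 0.54). Its level of 42 to 96 normalized counts was the lowest of the 10 genes and its SE the widest.

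Vgll4 (chr6:114860628-114969994, minus strand), whose product competes with YAP and TAZ for TEAD binding, was the single gene of the 10 called in KO against WT on both diets. It had 1118 and 846 normalized counts in WT SD, 503 and 517 in KO SD, 697 and 903 in WT HFD and 558 and 492 in KO HFD. All 4 KO libraries (492 to 558) were below all 4 WT libraries (697 to 1118). Vgll4 was 1.91-fold lower in KO on SD (-0.93 ± 0.20, limma adjusted p = 0.016) and 1.51-fold lower on HFD (-0.60 ± 0.20, adjusted p = 0.033). Of 11 other settings, 9 kept the call on SD and only 5 kept that on HFD. The difference between the diets was 0.33 ± 0.28 and did not pass (adjusted p = 0.43), nor did HFD against SD in WT (-0.29 ± 0.20, adjusted p = 0.31) or in KO (0.04 ± 0.20, adjusted p = 0.95). The call on HFD was lost without the second WT library (-0.41, adjusted p = 0.28) or the second KO library (-0.51, adjusted p = 0.15). The call on SD was lost without the first WT library (-0.73, adjusted p = 0.19), the first KO library (-0.91, adjusted p = 0.060) or the second KO library (-0.95, adjusted p = 0.052).

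Lats1 (chr10:7681209-7716458, plus strand), a kinase that phosphorylates YAP and TAZ, had 1534 and 1496 normalized counts in WT SD, 1737 and 1743 in KO SD, 2102 and 2498 in WT HFD and 1553 and 1475 in KO HFD. The WT HFD libraries were the highest of the 8, and the KO HFD libraries lay near WT SD. Lats1 was 1.51-fold lower in KO than in WT on HFD (-0.60 ± 0.15, limma adjusted p = 0.0080), just past the fold limit, and was not called on SD (0.20 ± 0.15, adjusted p = 0.55). The difference between the diets was -0.80 ± 0.21 (adjusted p = 0.024). In WT, Lats1 rose 1.51-fold on HFD (0.60 ± 0.15, adjusted p = 0.016), and in KO it did not pass (-0.20 ± 0.15, adjusted p = 0.55). The call in KO against WT on HFD was lost without the second WT library (-0.47, adjusted p = 0.12) and, by the fold limit, without the second KO library (-0.56, adjusted p = 0.033).

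Nf2 and Sav1 followed the same order of groups on HFD but fell short of the fold limit. Nf2 (chr11:4765845-4849536, minus strand), which encodes the tumour suppressor merlin, had 1398 and 1381 normalized counts in WT SD, 1144 and 1214 in KO SD, 1636 and 1747 in WT HFD and 1204 and 1060 in KO HFD, so that KO was below WT on both diets without overlap. Its log2 fold change was -0.58 ± 0.15 on HFD (limma adjusted p = 0.0099) and -0.24 ± 0.15 on SD (adjusted p = 0.47), and without the first KO HFD library it passed both limits (-0.67, adjusted p = 0.0079).

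Sav1 (chr12:69965012-69987002, minus strand), the scaffold of the MST kinases, had 1927 and 1718 normalized counts in WT SD, 1950 and 2303 in KO SD, 2514 and 2586 in WT HFD and 1770 and 1827 in KO HFD. KO was below WT on HFD (-0.50 ± 0.15, limma adjusted p = 0.020), whereas on SD both KO libraries were above both WT libraries without passing (0.22 ± 0.15, adjusted p = 0.51). The difference between the diets was -0.72 ± 0.21 and was called (adjusted p = 0.035). HFD against SD in WT was 0.49 ± 0.15 (adjusted p = 0.039), short of the fold limit. The gene Atl1 on the opposite strand overlaps 25.4% of the exon bases of Sav1, reads that overlapped several genes were excluded, and the strand setting of the counting is not given in the sources used here. Atl1 itself had 39 to 117 normalized counts.

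Stk3 and Stk4, which encode the core MST kinases, were not called in KO against WT on either diet. Stk4 (chr2:164070322-164155524, plus strand) had 487 and 499 normalized counts in WT SD, 631 and 779 in KO SD, 855 and 736 in WT HFD and 683 and 670 in KO HFD. WT SD was the lowest group, and the 3 other groups lay above it without overlap. In WT, Stk4 rose 1.61-fold on HFD (0.69 ± 0.18, limma adjusted p = 0.020), while KO against WT was 0.51 ± 0.18 on SD (adjusted p = 0.15) and -0.23 ± 0.18 on HFD (adjusted p = 0.34). The difference between the diets, -0.74 ± 0.25, did not pass (adjusted p = 0.061). Stk3 (chr15:34875496-35155806, minus strand) had 501 and 621 normalized counts in WT SD, 576 and 722 in KO SD, 706 and 608 in WT HFD and 523 and 612 in KO HFD. The groups overlapped in each of the 4 comparisons of 2 groups, and its log2 fold changes ran from -0.21 to 0.23 there, each ± 0.20.

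**Figure D3:**
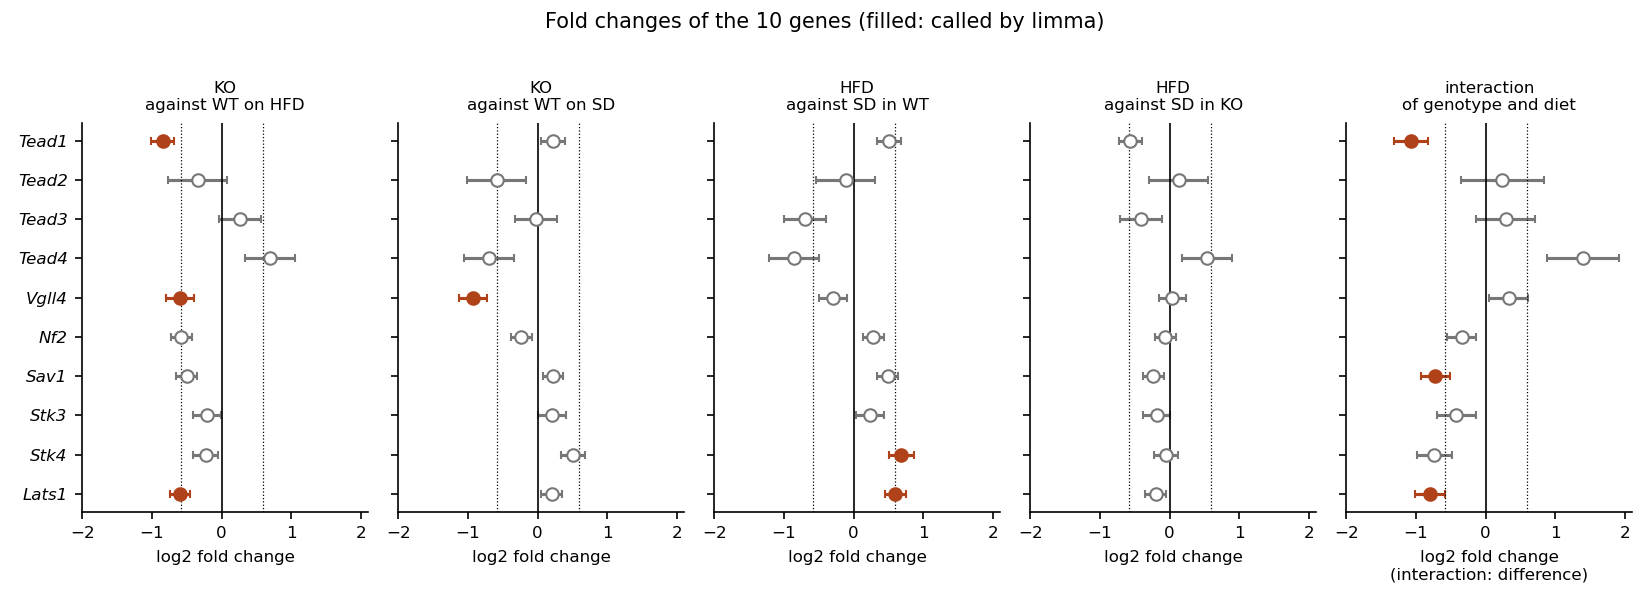
Points give the log2 fold change of each of the 10 genes (horizontal axis) with its SE as a bar, for KO against WT on each diet, the effect of HFD in each genotype, and the interaction (the KO effect on HFD minus that on SD). Filled points were called by limma and dotted lines mark the fold limit of 0.59: 3 genes are filled for KO against WT on HFD, 1 on SD, 2 for the diet in WT, none for the diet in KO and 3 for the interaction.

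By diet, 2 of the 10 genes rose in WT, Stk4 and Lats1 (background 18.0% called, 8.74% called higher), and none fell. The sums of macrophage (5262 to 5350 on SD, 2444 to 2495 on HFD) and endothelial markers were lower on HFD in WT, and their part in these calls was not tested. All 5 upstream genes had values above 0 in this comparison (median 0.49), although Nf2 and Stk3 lay below 0 with equal library totals. Of the 4 TEAD genes, 3 had values below 0, of which Tead2 was at 0.15 after quantile normalization and at 0.23 without the second WT HFD library. The calls in WT were fragile: each was lost when any 1 of the 4 WT libraries was left out, with log2 fold changes of 0.58 to 0.79 for Stk4 and 0.47 to 0.72 for Lats1. In KO, none of the 10 was called for the diet by limma (background 1.07% called), and 1 of the 10, Tead1, had an unadjusted p under 0.05, against 15.5% of all tested genes. For the difference between the diets in the KO effect, 3 of 10 were called, Tead1, Sav1 and Lats1, all in the lower direction (background 17.4% called, 8.73% lower). All 5 upstream genes had negative values there (median -0.72), as had Tead1, but with equal library totals Nf2 was at 0.09 and Stk3 at 0.0080. Tead2, Tead3, Tead4 and Vgll4 had positive values as reported, but Tead2 was at -0.12 after quantile normalization, at -0.11 without the second KO SD library and at -0.10 without the second WT HFD library, and Tead3 was at -0.13 without the first KO SD library. Comparisons on HFD and by diet in WT share the WT HFD libraries, so their values are not independent.

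The direction of several values depended on the scaling of the libraries. Totals were 20.8M and 21.0M normalized counts in WT HFD and 14.9M to 17.2M in the 6 other libraries, so that setting all totals equal moved the median of all tested genes in KO against WT on HFD from 0.09 to 0.47, and in HFD against SD in WT from -0.08 to -0.48. Under equal totals, Tead1 was at -0.46 (limma adjusted p = 0.042), Vgll4 at -0.21 (adjusted p = 0.44) and Lats1 at -0.21 (adjusted p = 0.30) on HFD, and none of the 10 was called. Equal totals shift all genes by nearly the same amount, so values relative to the median of all genes were bound to stay close. These relative values went from -0.94 to -0.93 for Tead1, from -0.69 to -0.68 for Vgll4 and from -0.69 to -0.68 for Lats1, which is no test of the falls. Quantile normalization moved them further, to -0.51 for Tead1, -0.44 for Vgll4 and -0.31 for Lats1, and none was called (-0.56, limma adjusted p = 0.024, short of the fold limit, for Tead1; -0.49, adjusted p = 0.075, for Vgll4; -0.36, adjusted p = 0.081, for Lats1). With equal totals Tead2 (0.03), Stk3 (0.17) and Stk4 (0.16) changed sign. For the diet in WT, equal totals took away the calls of Stk4 (0.27, adjusted p = 0.28) and Lats1 (0.18, adjusted p = 0.41), turned Nf2 (-0.13) and Stk3 (-0.18) to values below 0, and called Tead3 (-1.11, adjusted p = 0.023), Tead4 (-1.27, adjusted p = 0.038) and Vgll4 (-0.71, adjusted p = 0.024) lower instead. The split of all calls moved as well, from 53.1 to 77.2% higher in KO against WT on HFD and from 48.7 to 11.6% higher for the diet in WT.

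The number of calls also depended on how the WT HFD pair was treated, since these libraries differed less than other pairs among abundant genes. Among genes of 1000 to 5000 normalized counts, the squared difference between replicates was 6.18 times that of counting noise in WT HFD, 32.4 times in WT SD, 69.2 times in KO SD and 104 times in KO HFD. Among genes of 5 to 20 normalized counts the ratio in WT HFD (4.87) was not below that in WT SD (4.67). For the 10 genes themselves the median log2 difference between replicates was 0.22 in WT HFD, against 0.14 in WT SD, 0.31 in KO SD and 0.18 in KO HFD, so that the WT HFD pair was not the closest. The sample labels do not name the animal behind each library, and whether the WT HFD pair came from separate mice was not tested. If it did not, p-values of the comparisons that use this group are too small. Averaging the pair lowered the calls among all tested genes too, strongly so for the diet in WT and the interaction. A lack of calls there is thus not particular to the 10 genes. With the WT HFD pair averaged to 1 sample, Tead1 was still called in KO against WT on HFD (-0.85, limma adjusted p = 0.028), while Vgll4 (-0.61, adjusted p = 0.12) and Lats1 (-0.60, adjusted p = 0.062) were not, and none of the 10 was called for the diet in WT or for the interaction.

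Of 50 other Hippo pathway genes in a fixed list, 48 were tested and 20 were called in KO against WT on HFD (5 higher, 15 lower), which is 41.7% against 32.2% of all tested genes. Their median log2 fold change was -0.19. Among 13 genes of the kinase and MOB group, 2 rose and 2 fell (30.8% called, near the share of all tested genes). Taok3, a kinase that can activate MST kinases, had 450 and 458 normalized counts in WT HFD and 1758 and 1708 in KO HFD (1.93 ± 0.21, limma adjusted p = 2.5e-05) and rose on SD too (1.30 ± 0.21, adjusted p = 0.0025). Map4k1, a kinase known from blood cells, rose from 30 and 21 to 202 and 140 normalized counts (2.70 ± 0.39, adjusted p = 0.00025), in the libraries with the higher macrophage marker sums.

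Lats2, the paralogue of Lats1, was lower in KO on HFD (-0.65 ± 0.19, limma adjusted p = 0.017) and had 2459 and 2266 normalized counts in WT HFD and 1346 and 1675 in KO HFD. On SD it did not pass (-0.55 ± 0.19, adjusted p = 0.14), and its difference between the diets was -0.10 ± 0.26 (adjusted p = 0.82). The Lats2 call on HFD was kept in 1 of 4 fits that each left out a library (-0.81 to -0.49), being lost without either WT library (-0.59 and -0.71, adjusted p = 0.13 and 0.079) or the first KO library (-0.49, adjusted p = 0.086), and in 7 of 11 other settings, in which the adjusted p reached 0.37. The LATS partners Mob1a (-0.10 ± 0.14, adjusted p = 0.63) and Mob1b (-0.30 ± 0.16, adjusted p = 0.17) were not called on HFD, and Mob1b rose with the diet in WT (0.62 ± 0.16, adjusted p = 0.019), a call lost when any 1 of the 4 WT libraries was left out (0.54 to 0.70).

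Among 11 membrane scaffold genes, 2 rose and 4 fell on HFD (54.5% called, against 32.2% of all tested genes). Frmd6, the FERM protein that acts beside merlin, rose from 216 and 302 normalized counts in WT HFD to 1178 and 1475 in KO HFD (2.36 ± 0.25, limma adjusted p = 2.1e-05), where Nf2 was at -0.58. On SD, Frmd6 had 598 and 498 in WT and 799 and 488 in KO, with overlap (0.19 ± 0.25, adjusted p = 0.76). Wwc2, a relative of the scaffold KIBRA, fell on both diets, from 2390 and 2396 to 1081 and 1325 normalized counts on HFD (adjusted p = 0.00050) and from 1842 and 1792 to 1111 and 938 on SD (-0.83 ± 0.16, adjusted p = 0.0088). Amotl2, which binds YAP and TAZ, had 7068 and 7075 normalized counts in WT HFD and 1731 and 1424 in KO HFD (-2.17 ± 0.18, adjusted p = 2.1e-06). The study counts Amotl2 and Lats2 among YAP/TAZ target genes. It reports both as reduced in KO adipocytes on HFD, by quantitative RT-PCR and in these RNA-seq data.

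Among 12 genes that restrain the cascade, chiefly the Ajuba family and the STRIPAK phosphatase complex, 5 fell and none rose on HFD. That is 41.7% called, against 32.2% of all tested genes (15.1% called lower). Strip2, a STRIPAK subunit, fell from 201 and 230 to 63 and 54 normalized counts on HFD (-1.86 ± 0.29, limma adjusted p = 0.00038) and from 296 and 330 to 149 and 102 on SD (-1.33 ± 0.29, adjusted p = 0.017). Among 11 genes for retention and turnover of YAP and TAZ, chiefly those of 14-3-3 proteins, 1 rose and 3 fell (36.4% called, near the share of all tested genes). Ywhaq had 858 and 864 normalized counts in WT HFD and 389 and 293 in KO HFD (-1.35 ± 0.21, adjusted p = 0.00037).

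Vgll3, a TEAD cofactor related to Vgll4, had the largest absolute log2 fold change of the listed genes on HFD and for the diet in WT. It had 80 and 274 normalized counts in WT SD, 69 and 94 in KO SD, 2599 and 2593 in WT HFD and 163 and 172 in KO HFD. The 2 WT HFD libraries stood apart from the 6 others. Vgll3 rose with the diet in WT (4.12 ± 0.42, limma adjusted p = 0.00013), and was lower in KO than in WT on HFD (-3.95 ± 0.42, adjusted p = 2.0e-05), while the SD difference was -0.87 ± 0.42 (adjusted p = 0.31). Vgll4 was at -0.29 for the diet in WT.

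On SD, 4 of the 48 other pathway genes were called (8.33%, against 4.71% of all tested genes), Taok3 higher and Amotl2, Strip2 and Wwc2 lower. Leaving out each library in turn kept the calls of Taok3 and Amotl2 in 4 of 4 fits and those of Strip2 (-1.61 to -1.06) and Wwc2 (-0.95 to -0.71) in 1 of 4, both being lost without either WT library or the second KO library. With the diet in WT 15 were called (10 higher, 5 lower), 31.2% against 18.0%. In this comparison Ppp2r1a, the scaffold subunit of the phosphatase PP2A (0.98 ± 0.16, limma adjusted p = 0.0022), and Ywhaq (0.89 ± 0.21, adjusted p = 0.012) rose. Rassf1, which binds MST kinases (-1.27 ± 0.27, adjusted p = 0.0075), Frmd6 (-1.09 ± 0.25, adjusted p = 0.012) and the 14-3-3 gene Sfn (-1.61 ± 0.48, adjusted p = 0.035) fell. Leaving out each WT library in turn kept the call of Ppp2r1a in 4 of 4 fits, as it did that of Vgll3. The call of Frmd6 was kept in 2 of 4 (lost without the first WT SD or the first WT HFD library, -0.96 and -0.85), that of Ywhaq in 1 of 4 (kept without the second WT SD library, 0.72 to 1.07 over the fits), that of Rassf1 in 1 of 4 (kept without the first WT HFD library, -1.57 to -0.97) and that of Sfn in 0 of 4 (-2.07 to -1.14). For the diet in KO none of the 48 was called by limma, against 1.07% of all tested genes. An unadjusted p under 0.05 was found for 6 of the 48, against 15.5% of all tested genes.

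**Figure D4:**
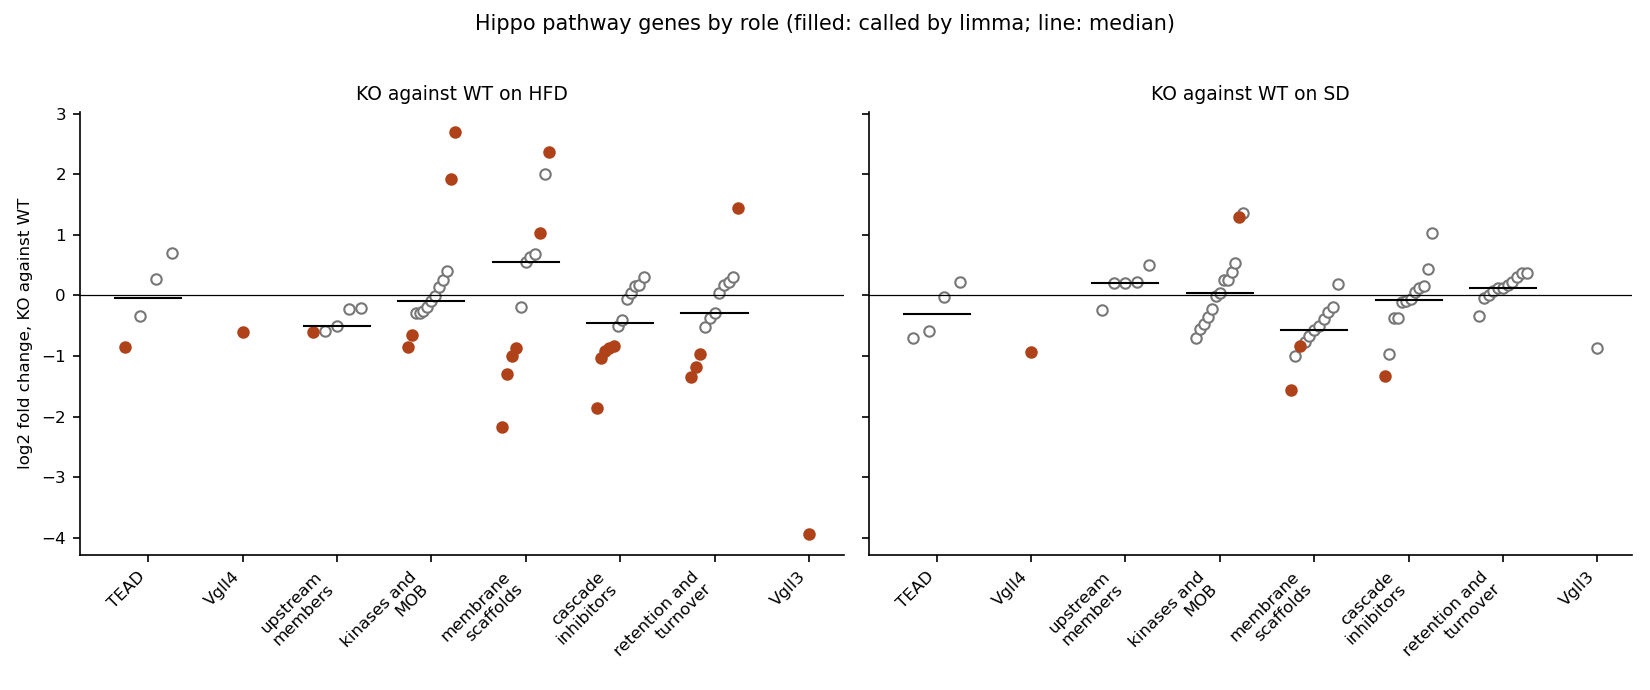
Each point is the log2 fold change of 1 gene in KO against WT (vertical axis) on HFD (left) and SD (right), grouped by role in the Hippo pathway (horizontal axis), with called genes filled and a line at the median of each group of more than 1 gene. On HFD called genes lie on both sides of 0 among the kinases and scaffolds and below 0 among the cascade inhibitors, and on SD 1 of the 10 genes and 4 of the 48 others are filled. Of all tested genes 32.2% were called on HFD and 4.71% on SD.

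The letters GGAATG or CATTCC occurred in the windows of 6 of the 14 other pathway genes that were called lower on HFD and had a window, of 0 of the 5 called higher and of 3 of the 20 not called, against 16.6% of all genes. The windows of the genes called lower in both comparisons of KO with WT, Vgll4, Amotl2 and Wwc2, held them, and that of Strip2 did not. Among tested genes averaging 50 or more normalized counts, those most like Tead1 over the 8 libraries were Mcee (Pearson r = 0.9916), Zfp637 (r = 0.9785) and Tmem170b (r = 0.9762), ranked from 12092 genes on the log2 scale. These libraries share groups and scaling, so that r is given as a description. Mcee, a mitochondrial enzyme of propionate breakdown, had 407 and 456 normalized counts in WT HFD and 253 and 237 in KO HFD.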

How the data were processed

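RNA was extracted from isolated epididymal white adipocytes, depleted of ribosomal RNA and made into stranded libraries. According to the study's methods and the submitters' processing notes, the authors trimmed reads, aligned them to GRCm38 (mm10) with STAR 2.5.2b, and counted them per gene with featureCounts 1.5.1, leaving out reads that mapped to several genes or places. The values the authors deposited are such counts after scaling by each library's size factor and rounding to integers, here treated as a score on a linear scale (normalized counts). Raw counts were not used here, so the planned count test was not run, and the values were tested as normalized values.

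Groups were taken from the sample labels. Genes averaging 5 or more normalized counts across libraries (18800 of 30387) were tested on log2(value + 1) with limma 3.58.1 (R 4.3.3, empirical Bayes with trend) in a fit of 4 group means. Fold changes on this scale understate changes of low genes. P-values were adjusted by Benjamini-Hochberg over all tested genes, and a call needed an adjusted p no higher than 0.05 and a log2 fold change no smaller than 0.59, the study's limits. The study gives 2 mice per group for these data. With 2 against 2 libraries the smallest two-sided p of an exact permutation test is 0.333, so single genes were tested only in this fit. In simulated data 179 of 200 changed genes were called, and none when no gene was changed. The changed genes were well expressed, with log2 changes of 1 or 2 in either direction, and all groups had the same spread. Smaller changes and the unequal spread of these groups were not tested.

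The 10 genes, 50 other pathway genes and the marker lists were chosen with earlier results of these data known. The text names the 10 genes, the targeted genes, at most 3 rises and 3 falls of other pathway genes in each comparison, and Lats2, Mob1a and Mob1b. A gene so named for one comparison is also given in others, so that a comparison can show more than 3 falls. Levels per kb used the union of exons in GENCODE vM21. The worth of 1 read was read from the spacing of low values. Replicate numbers were not used to pair samples in the main fit. Alternatives were other pseudocounts (0.1 and 8), filters, scalings, a replicate block and leaving out each library. Figures were drawn with matplotlib 3.10.9.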

Additional observations from a re-analysis of the deposited data

Results flagged for a closer look

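The KO effect on HFD differed from that on SD, by the interaction term of the limma fit, for 3 of the 10 genes: Tead1 (-1.07 ± 0.24 on the log2 scale, adjusted p = 0.013), Sav1 (-0.72 ± 0.21, adjusted p = 0.035) and Lats1 (-0.80 ± 0.21, adjusted p = 0.024). Of all tested genes 17.4% were called for this term, 8.73% in the lower direction. Tead1 kept this call in 5 of 8 fits that each left out a library, and Sav1 and Lats1 in 2 of 8.

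The interaction term was called for 13 of the 48 other pathway genes (27.1%, against 17.4% of all tested genes), of which the 8 named ones are given here. Values above 0 were those of Frmd6 (2.17 ± 0.36, limma adjusted p = 0.0041), Rassf1 (1.43 ± 0.38, adjusted p = 0.023) and Amot (1.30 ± 0.33, adjusted p = 0.021). Values below 0 were those of Vgll3 (-3.07 ± 0.59, adjusted p = 0.0074), Ywhag (-1.49 ± 0.33, adjusted p = 0.012), Ywhab (-1.19 ± 0.35, adjusted p = 0.034), Ppp2r1a (-1.14 ± 0.23, adjusted p = 0.0082) and Ywhaq (-1.01 ± 0.29, adjusted p = 0.034). Of 8 fits that each left out a library, Frmd6 and Vgll3 kept this call in 8, Ppp2r1a in 6, Ywhag in 5, Rassf1 in 3, and Amot, Ywhab and Ywhaq in 2. The second KO HFD library was low for Ywhab and Ywhag, with 5939 and 7386 normalized counts against 11069 and 12121 in the first.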

How the results depend on the processing

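Counts of called genes moved by over 1.5 times under several settings, and no called value changed its sign. For KO against WT, 32.2% of tested genes were called on HFD, 31.8% with equal totals, 27.6% after quantile normalization and 34.7% without fold limit. For the diet in WT it was 18.0%, 5.6% with no filter and 11.6% after quantile normalization. For the interaction it was 17.4%, 2.37% with no filter, 17.2% with equal totals and 11.2% after quantile normalization. Averaging the WT HFD pair lowered calls among all genes too. Of the 10 genes, 3 were called in KO against WT on HFD; this was 0 with equal totals per library, 0 after quantile normalization, 1 with the WT HFD libraries averaged and 5 with no fold limit. On SD the 1 call became 0 with no filter on low values and 0 when only the groups compared were fitted. Of tested genes 4.71% were called on SD as reported, 1.44% with no filter and 2.45% with only these groups fitted. For the diet in WT the 2 calls became 0 after quantile normalization and 0 with the WT HFD libraries averaged. For the interaction the 3 calls became 0 with no filter, 1 with equal totals (in which the called gene was Tead4), 0 after quantile normalization and 0 with the averaged libraries. Of the 48 other pathway genes, the 15 called for the diet in WT became 9 with no filter, 8 after quantile normalization and 2 with the averaged libraries; the 13 of the interaction became 3, 8 and 1; and the 0 for the diet in KO became 1 with a pseudocount of 8 and 1 with upper-quartile scaling. The cause was not tested beyond these settings.

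Leaving out each library in turn gave 1 to 4 calls among the 10 genes in KO against WT on HFD (1 without the second WT or the second KO library), 0 to 1 on SD, 0 in every such fit for the diet in WT, 0 to 1 for the diet in KO and 0 to 5 for the interaction (0 without either WT SD library or the second WT HFD library, 5 without the first KO SD library). Among the other pathway genes it gave 15 to 21, 2 to 5, 3 to 7, 0 to 3 and 2 to 16. In these fits a lone library is assumed to vary like the other groups. Tead1 on HFD was called in 4 of 4 such fits (-0.95 to -0.74) and in 9 of 11 other settings.

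With the replicate number as a replicate block, 2, 1, 2, 0 and 2 of the 10 genes were called in KO against WT on HFD, on SD, for the diet in WT and in KO, and for the interaction. Of all tested genes 30.4, 3.83, 15.6, 0.596 and 13.7% were called, in the same order. Differences between replicates correlated at -0.30 to 0.11 over genes between groups, which gave no sign of pairing by number. A shared litter or preparation was not tested. Equal totals moved the calls higher in the interaction from 49.9 to 80.8% of all calls. With 2 libraries a group, precision is set by the spread between libraries more than by depth.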
